A study of Mus musculus with 36 samples.

Results

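The comparison described here is of the mouse liver transcriptome at ZT4, the midpoint of the daily hypoxic period, between mice exposed to intermittent hypoxia (IH) and air-exposed controls. Zeitgeber time (ZT) counts the hours from lights on. The members are the 6 libraries taken at ZT4, 3 IH and 3 control, out of 36 libraries in the series, which hold the same 2 conditions at 6 time points. Of 24066 gene symbols listed on 1 row, 13215 averaged 0.1 FPKM or more across all libraries and were tested.

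All mice were wild-type male C57BL/6JRj of 16 weeks, kept under 12 h of light and 12 h of dark with 5 to a cage and free access to chow. The IH mice had 4 weeks of 60 cycles per h between 5% and 21% inspired oxygen, from ZT0 to ZT8 of each day. The controls ("Normoxia control") had air-air cycles in the same setting. No gene was altered in either group, and whole liver was used, so that in this bulk tissue fewer cells of a type and less RNA per cell cannot be told apart. Each value is FPKM, the number of fragments counted per length of transcript and per sequenced library total, and each difference is IH minus control in log2(FPKM + 1) with its standard error from limma, a linear model fitted over all genes at once. A gene was called at a Benjamini-Hochberg adjusted p under 0.05.

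In the mouse, a nocturnal animal, ZT4 lies in the rest and fasting phase, when the liver shifts from storing to releasing glucose. The liver clock drives transcription through the BMAL1 and CLOCK proteins, which bind E-box sequences, and through the factors DBP, TEF and HLF, which relay its rhythm to metabolic genes. Hypoxia acts on transcription through the HIF factors. Heat shock factor and the unfolded protein response of the endoplasmic reticulum (ER) set the level of chaperones, and interferon signalling acts through the interferon-stimulated response element.

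The libraries were alike in depth. From the steps between the lowest FPKM values, their relative depths were 0.901 to 1.06 against control replicate 1, although the absolute read number is not known. The correlations of log2 values across genes between replicates were 0.993 to 0.995 in IH and 0.990 to 0.993 in controls. Hepatocyte markers were at high levels in every library, with albumin (Alb) at 28411 to 35151 FPKM. The control group was not uniform in the acute phase response. Serum amyloid A1 (Saa1) was at 2357 and 2435 FPKM in control replicates 1 and 3 and at 57.4 FPKM in control replicate 2, while the IH livers had 30.6, 72.1 and 57.9 FPKM. The metal-binding protein gene Mt2 followed the same pattern, with 359 and 477 FPKM in control replicates 1 and 3 against 4.69 FPKM in control replicate 2 and 5.03 to 10 FPKM in IH. High Saa1 was not limited to controls at ZT4. Among IH livers, ZT0 replicate 2 had 22865 FPKM and ZT12 replicate 2 had 2470 FPKM. Among controls, ZT12 replicate 2 had 20546 FPKM, ZT16 replicate 3 12912 FPKM and ZT20 replicate 1 2242 FPKM. Control ZT0 replicate 3 and control ZT8 replicate 1 had 1235 and 828 FPKM. High levels were thus more frequent among controls across the series. Values against control replicate 2 of ZT4 are therefore given beside some of the results, though not all that this could touch. The p-values measure only the spread between these 6 libraries.

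At ZT4, 531 genes were higher in IH (4.02% of those tested) and 198 were lower (1.5%). At an unadjusted P of 0.01 or less, which is nearer to the threshold used in the study, 1200 genes were higher (9.08%) and 387 lower (2.93%). The 531 higher genes had a median difference of 0.43 and the 198 lower genes a median of -0.53, with 17 and 32 genes past a 2-fold difference on this scale. The 3 IH values lay above all 3 control values in 3534 genes (26.7%) and below them in 1029 genes (7.79%). The balance of the directions depended on the scaling between libraries, since the median difference over all genes was 0.07, and rescaling by the median of ratios, which takes it to 0.00, gave 224 higher and 331 lower genes. Quantile normalization gave 264 and 293. The adjusted calls also depended on having all 6 libraries. Without IH replicate 1, 2 or 3 they came to 24, 9 and 10 higher and 22, 7 and 9 lower genes, without control replicates 1 or 3 to 10 and 25 higher and 8 and 22 lower, and without control replicate 2 to 990 higher and 416 lower. With the spread taken from all 36 libraries they were 117 and 36. Of the called genes, 444 of the higher and 176 of the lower had an unadjusted P of 0.01 or less whichever library was left out. The adjusted call held in all 6 of these fits for 8 genes: Rgs16, Slc10a1, Snora28, Tnfrsf19 and Vwce, which rose, and Hsp90aa1, Lrrc59 and Asns, which fell.

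**Figure D1:**
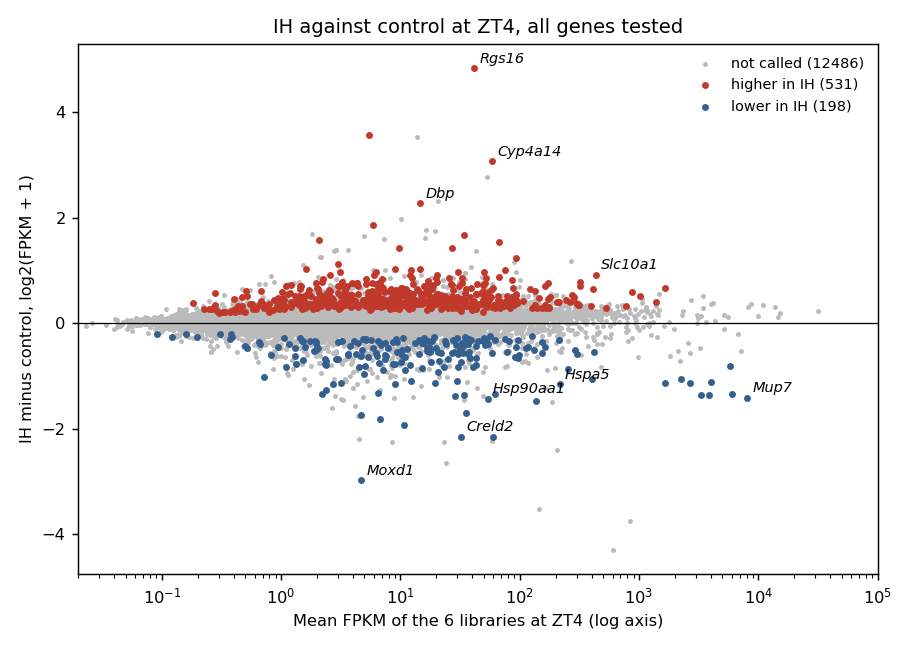
Difference between IH and control at ZT4 in log2(FPKM + 1) against the mean FPKM of the 6 libraries (log axis), 1 point per gene tested. The 531 genes higher in IH are red and the 198 lower are blue; Rgs16 stands highest and Moxd1 lowest among the called genes, and 21 genes with a mean under 0.02 FPKM are not drawn.

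The called genes are described next against each control library taken singly. The 531 higher genes had a median difference of 0.42, 0.38 and 0.47 against control replicates 1, 2 and 3, and all 531 were above 0 in each case. The 198 lower genes had medians of -0.51, -0.50 and -0.48, and all 198 were below 0. Since the groups of every called gene do not overlap, and the genes were called from these same libraries, these values are a description and no sign of stability. In a fit that kept control replicate 2 as the only ZT4 control, the median difference over all genes was 0.04. With the Saa1 level as a covariate over 36 libraries 44 genes were higher and 16 lower. The fit with the spread of the same 36 libraries but without Saa1 gave 117 and 36. These 2 fits were added after the data were seen.

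The gene with the largest difference was Rgs16, at 153740349 to 153745468 on the plus strand of chromosome 1 (GRCm38), which encodes a regulator that shortens signalling by G proteins. It was at 86.8, 77.5 and 78 FPKM in the IH livers and at 3.42, 1.02 and 1.58 FPKM in the controls. The groups were far apart, with a 40.2-fold ratio of the means and a difference of 4.84 ± 0.26 (adjusted p = 0.00195, limma). None of the other 8 members of the RGS family tested was called. Snora28, a small nucleolar RNA, was at 10.9, 9.18 and 12.7 FPKM in IH and was listed at 0 in all 3 controls. A transcript this short is poorly captured by poly-A selection, and its FPKM is sensitive to single reads.

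Several heat shock chaperones were lower in IH. Of 22 members tested, 10 fell and none rose, against 1.5% of all genes lower, and the median of the list was -0.26. Hsp90aa1, the inducible cytosolic HSP90, lies at 110690605 to 110702728 on chromosome 12 (GRCm38) and was at 30.3, 28.6 and 27 FPKM in IH and at 79.6, 77 and 80.8 FPKM in controls. The IH livers thus held less of this transcript without overlap, and the difference was -1.44 ± 0.06 (adjusted p = 0.000506, limma). Hsph1, a nucleotide exchange factor for HSP70, was at 2.85, 3.1 and 3.98 FPKM in IH and at 10.2, 10.6 and 8.54 FPKM in controls. Its difference was -1.33 ± 0.12, with an adjusted p of 0.0124 (limma). Hsp90ab1, the constitutive HSP90, differed less but within a very narrow spread, from 240 to 245 FPKM in IH and from 343 to 344 FPKM in controls. The small chaperone Hspb1 (-0.68 ± 0.07), the HSP70-HSP90 adaptor Stip1 (-0.73 ± 0.08) and the HSP90 co-chaperone Fkbp4 (-0.57 ± 0.07) also fell. The remaining lower members were Ahsa1, Hspa4l, Hspe1 and Cacybp. Median-ratio scaling also gave 10 lower members, and leaving out 1 library at a time gave 1 (without IH replicate 2 or control replicate 1) to 9 (without control replicate 2).

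Several chaperones of the ER were also lower. Of 32 genes of the unfolded protein response, 11 fell (34.4%) and 1 rose (3.1%), beside 1.5% and 4.02% of all genes. The median of the list was -0.51. Hspa5, the main ER chaperone BiP, was at 116, 134 and 139 FPKM in IH and at 251, 439 and 220 FPKM in controls. The control livers varied more than the IH livers, with control replicate 2 highest, and the difference was -1.16 ± 0.25 (adjusted p = 0.0462, limma). Hyou1, an ER member of the HSP70 superfamily, was at 13.6, 16.5 and 15.5 FPKM in IH and at 46.3, 83.8 and 35.6 FPKM in controls. Creld2, an ER stress-inducible protein, was at 7.32, 10 and 11.3 FPKM in IH and at 36.7, 101 and 25 FPKM in controls. Their differences were -1.71 ± 0.28 and -2.16 ± 0.47. Sdf2l1, Manf, Hsp90b1, Dnajb11, Calr, Edem1 and Pdia3, which fold or clear proteins of the secretory pathway, made up the other lower ER genes, and Sec23b, a coat protein of ER export vesicles outside the list, fell by 0.86 on the log2 scale. Asns, which makes asparagine and is a target of ATF4, was at 0.548, 1.06 and 0.813 FPKM in IH and at 3.79, 3.42 and 3.47 FPKM in controls. Its 4.42-fold lower level had a difference of -1.34 ± 0.11 (adjusted p = 0.0103, limma). Trib3, a pseudokinase that is also a target of ATF4, rose by 0.92 ± 0.18. The number of lower members was 15 without control replicate 2, and 1 without any other library.

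**Figure D2:**
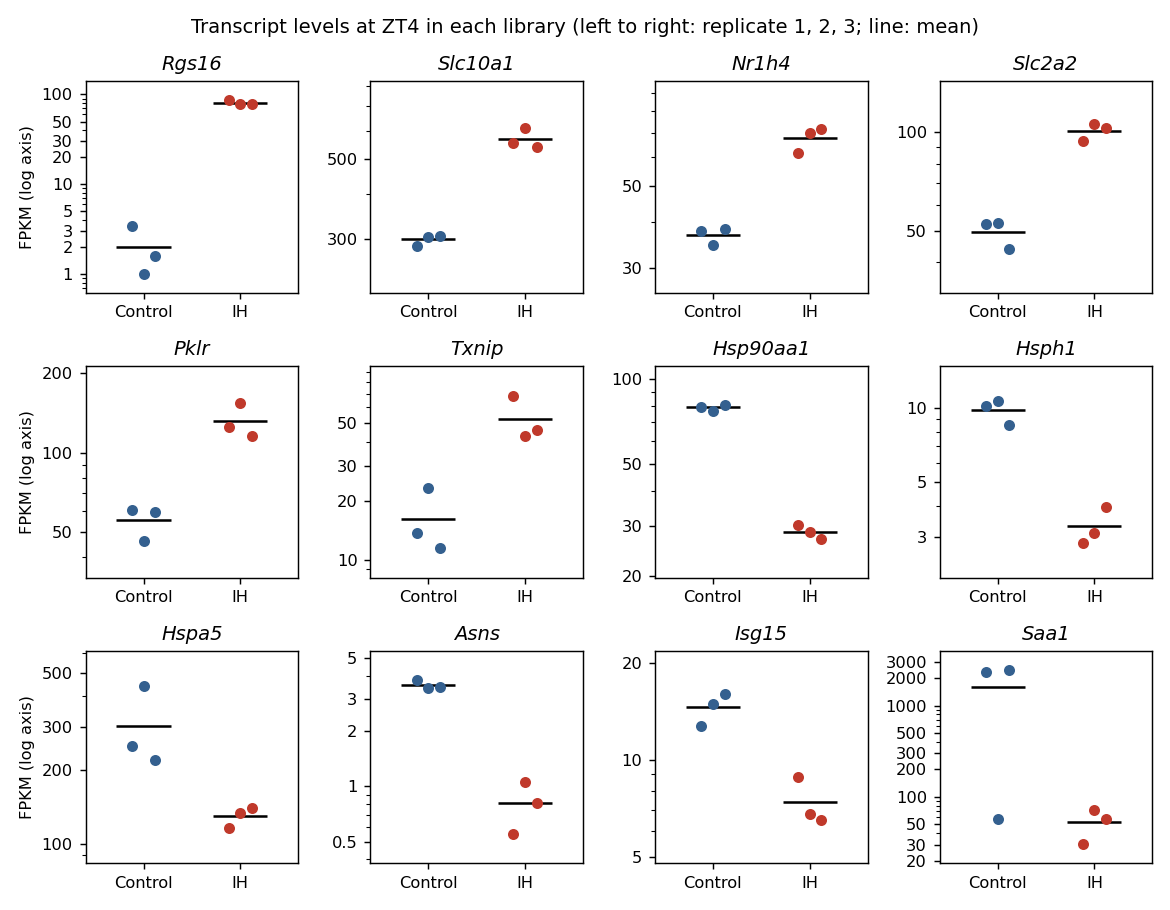
FPKM (log axis) of 12 genes in each of the 3 control and 3 IH libraries at ZT4, with lines at the means. Rgs16 stands from 77.5 to 86.8 FPKM in IH and from 1.02 to 3.42 FPKM in controls, Hsp90aa1 is lower in all IH libraries, and Saa1 separates control replicate 2 from the other control libraries.

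Interferon-stimulated genes were also among the lower genes. Of 59 tested, 9 fell (15.3%, beside 1.5% of all genes) and none rose, and the median was -0.20. The IH values lay below all control values in 26 of the 59, against 7.79% of all genes. Isg15, the ubiquitin-like modifier, was at 8.87, 6.79 and 6.51 FPKM in IH and at 12.7, 14.9 and 15.9 FPKM in controls. All IH values were lower, and the difference was -0.89 ± 0.13 (adjusted p = 0.0254, limma). The nucleic acid sensor Zbp1 fell by 0.97 ± 0.14, and Mx2, annotated as a polymorphic pseudogene, by 0.68 ± 0.09. Ifit1, which binds viral RNA, fell by 0.68 ± 0.12, the immunity-related GTPase Irgm1 by 0.57 ± 0.09 and the transcription factor Irf7 by 0.33 ± 0.06. The median against control replicate 2 alone was -0.18. The number of lower members was 13 without control replicate 2, 2 without IH replicate 1, and 0 without any of the remaining 4 libraries. Marker lists of immune cells differed in their medians, with -0.40 for 11 Kupffer cell markers and -0.07 for 10 leukocyte markers, and none of these markers was called. Against control replicate 2 both medians were 0.01. The summed level of the Kupffer cell markers was 56.1 to 103 FPKM in IH and 80.7 to 151 FPKM in controls, and that of the leukocyte markers 12.2 to 23.8 and 19.8 to 36.1 FPKM. Their part in the interferon genes was not tested.

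Promoter sequence was searched for letters bound by heat shock factor, the unfolded protein response, interferon signalling and the clock, since members of these lists were among the called genes. RefSeq promoters (GRCm38.p6) were found for 560 of the 729 called genes, and the 250 bases before each start were read on both strands. The heat shock pair GAANNTTC or TTCNNGAA was in 8 of 17 heat shock genes (47.1%), including 4 of the 8 called ones, and in 14.5% of 27025 genes with a promoter. The ER stress element, CCAAT and CCACG held 9 bases apart, was in 9 of 28 unfolded protein response genes (32.1%) and in 0.13% of all. A pair of GAAA repeats 2 bases apart, the core of the interferon-stimulated response element, was in 19 of 45 interferon-stimulated genes (42.2%) and in 3.46% of all. Among called members with a promoter, these 2 elements were in 4 of 10 (40%) and 3 of 7 (42.9%). In all 3 lists the called members held the letters about as often as the whole list. These shares thus describe the lists and not the calls at ZT4. Over all 155 lower genes with a promoter, the shares were 15.5%, 2.58% and 6.45%, in the same order. Over the tested genes with a promoter they were 12.4%, 0.18% and 3.33%. The 4 lower genes with an ER stress element were Calr, Creld2, Hsp90b1 and Hspa5, all members of the unfolded protein response list. The 7 sequences that follow are examples of these letters and were cut where needed to lie outside exons of the GENCODE annotation. Capitals mark each whole match, the bases between its parts included, and each sequence runs towards the start of its gene. Calr, Hsp90b1 and Creld2 carry it in the reverse direction.
Hspb1, chr5:135887789-135887918, plus strand, 2 heat shock pairs: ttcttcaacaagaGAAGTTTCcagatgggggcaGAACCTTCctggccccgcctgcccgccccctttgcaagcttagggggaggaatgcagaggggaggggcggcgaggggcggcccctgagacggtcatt
Creld2, chr15:88819496-88819645, plus strand, 1 ER stress element: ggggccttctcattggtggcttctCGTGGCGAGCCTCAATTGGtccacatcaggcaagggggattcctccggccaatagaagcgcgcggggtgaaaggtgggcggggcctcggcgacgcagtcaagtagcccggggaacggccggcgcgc
Hsp90b1, chr10:86705510-86705624, minus strand, 1 ER stress element: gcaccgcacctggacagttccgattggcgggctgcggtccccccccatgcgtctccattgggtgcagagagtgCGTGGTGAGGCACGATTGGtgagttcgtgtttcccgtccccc
Calr, chr8:84846937-84847131, minus strand, 1 ER stress element: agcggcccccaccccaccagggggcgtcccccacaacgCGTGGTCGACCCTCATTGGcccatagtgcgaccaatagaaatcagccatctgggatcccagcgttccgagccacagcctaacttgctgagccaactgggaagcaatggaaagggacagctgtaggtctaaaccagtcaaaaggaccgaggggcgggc
Isg15, chr4:156200819-156200928, minus strand, 3 overlapping GAAA pairs: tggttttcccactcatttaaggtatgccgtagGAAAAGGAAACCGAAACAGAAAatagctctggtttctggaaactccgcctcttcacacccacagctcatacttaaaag
Ifit1, chr19:34640749-34640868, plus strand, 2 GAAA pairs in reverse: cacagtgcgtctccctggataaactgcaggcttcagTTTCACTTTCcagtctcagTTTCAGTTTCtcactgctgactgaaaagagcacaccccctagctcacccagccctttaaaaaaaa
Bhlhe41, chr6:145865561-145865650, minus strand, 1 E-box: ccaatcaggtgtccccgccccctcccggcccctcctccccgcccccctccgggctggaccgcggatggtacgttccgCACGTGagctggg

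Most clock output factors were higher in IH. Of 8 tested, 5 rose and none fell, against 4.02% of all genes higher, and the median was 0.74. Dbp, a PAR bZIP factor under direct control of BMAL1 and CLOCK, was at 8.78, 30.5 and 37.1 FPKM in IH and at 3.9, 2.77 and 4.52 FPKM in controls. IH replicate 1 lay nearer to the controls than the other IH livers, and the difference was 2.28 ± 0.49 (adjusted p = 0.0471, limma). Its relatives Tef (1.03 ± 0.20) and Hlf (0.74 ± 0.12) also rose, as did the repressor Bhlhe41 (0.50 ± 0.08) and the cell cycle kinase Wee1 (0.58 ± 0.11). An E-box, CACGTG, was in 2 of the 6 output factors with a promoter (Bhlhe41, shown above, and Tef) and in 6.86% of all genes with a promoter, 9.85% of those tested, 12.3% of the higher and 11% of the lower genes. The D-box, bound by DBP, TEF and HLF, was in none of these 6, in 0.741% of the higher genes and in 0.892% of those tested. In the core clock, 2 of 13 members rose (15.4%, beside 4.02% of all genes) and none fell. They were the repressors Nr1d2 (0.52 ± 0.10) and Cry2 (0.36 ± 0.08). Arntl, which encodes BMAL1, was at 6.75, 2.78 and 2.08 FPKM in IH and at 8.64, 7.19 and 7.21 FPKM in controls, with a difference of -0.95 ± 0.32 (adjusted p = 0.115, limma). Per3 had a difference of 0.77 ± 0.19 (adjusted p = 0.0635, limma) and Per1 one of 0.85 ± 0.40 (adjusted p = 0.222, limma). Under median-ratio scaling 3 output factors and none of the core clock genes were called. The calls of output factors came to 2 without IH replicate 1, 3 without control replicate 2 and 0 without any of the remaining 4 libraries.

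Some genes of fructose and glucose metabolism rose in IH. Of 9 genes of the ChREBP and fructose list, 5 rose (55.6%, beside 4.02% of all genes) and none fell, with a median of 0.66. Ketohexokinase (Khk), which phosphorylates fructose, was at 303, 324 and 349 FPKM in IH and at 236, 222 and 216 FPKM in controls. The groups did not overlap, and the difference was 0.53 ± 0.07 (adjusted p = 0.0246, limma). The fructose transporter Slc2a5 (0.66 ± 0.10), the triokinase Tkfc (0.71 ± 0.13) and the glucose-responsive arrestin Txnip (1.67 ± 0.28) rose with it. Of 25 genes of gluconeogenesis and glycolysis, 6 rose (24%, beside 4.02% of all genes), none fell and 19 were not called. Slc2a2, the hepatocyte glucose transporter GLUT2, was at 94.2, 106 and 103 FPKM in IH and at 52.3, 52.8 and 43.8 FPKM in controls, a 2.04-fold ratio of the means. Liver pyruvate kinase (Pklr) was at 125, 154 and 116 FPKM in IH and at 60.4, 46.1 and 59.5 FPKM in controls. Both were clear of the controls, with differences of 1.01 ± 0.09 and 1.23 ± 0.14. Gpi1, the glucose 6-phosphate transporter Slc37a4 and the glucokinase regulator Gckr rose by less. The gluconeogenic enzyme G6pc was at 459, 357 and 285 FPKM in IH and at 79.5, 209 and 242 FPKM in controls, and its difference of 1.17 ± 0.41 did not pass (adjusted p = 0.127, limma). Pck1 overlapped between the groups, at 485 to 1011 FPKM in IH and 723 to 937 FPKM in controls. With each library left out in turn, 0 to 5 members of the first list and 0 to 7 of the second were called. Both were at 0 without IH replicate 2 or 3, the first also without control replicate 1, and the highest counts were without control replicate 2.

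Some genes of glycogen synthesis and breakdown rose too. Of 25 tested, 5 rose (20%, beside 4.02% of all genes) and none fell. Gys2, the liver glycogen synthase, was at 49.1, 67.1 and 72.5 FPKM in IH and at 36.2, 38.7 and 35.3 FPKM in controls (0.74 ± 0.14, adjusted p = 0.038, limma). Ugp2, which makes UDP-glucose for it, rose by 0.64 ± 0.12. The glycogen-targeting subunit Ppp1r3g and laforin, encoded by Epm2a, also rose. Under median-ratio scaling 2 members of the list were called. The count was 8 without control replicate 2, 1 without IH replicate 1 and 0 without any of the remaining 4 libraries.

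Some genes of bile acid and sterol transport rose. Of 24 members of the bile acid list, 6 rose (25%, beside 4.02% of all genes), none fell and 18 were not called. The median was 0.12 beside 0.07 for all genes. Slc10a1, the sodium-dependent bile acid uptake carrier NTCP, lies at 80953183 to 80968705 on chromosome 12 (GRCm38) and was at 556, 610 and 541 FPKM in IH and at 288, 305 and 307 FPKM in controls. The groups did not overlap, and the difference was 0.92 ± 0.07 (adjusted p = 0.00921, limma). Nr1h4, which encodes the bile acid receptor FXR, was at 61.5, 70.1 and 71.8 FPKM in IH and at 37.8, 34.7 and 38.4 FPKM in controls. Its difference of 0.86 ± 0.08 had an adjusted p of 0.0124 (limma). Abcg5 and Abcg8, whose products form the canalicular sterol exporter and whose genes share a divergent promoter, rose by 0.71 ± 0.08 and 0.77 ± 0.08. Klb, the co-receptor for FGF15 (0.69 ± 0.11), and Cyp27a1, of the alternative synthesis pathway (0.38 ± 0.08), completed the group. Cyp7a1, the rate-limiting enzyme of the classic pathway, was at 13.5, 7.29 and 12 FPKM in IH and at 5.24, 4.75 and 6.24 FPKM in controls, without overlap, and its adjusted p was 0.0589 (limma). Without IH replicate 1, 2 or 3 the number of higher members was 2, 1 and 3, without control replicate 1 or 3 it was 1 and 3, and without control replicate 2 it was 8.

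Lipid genes moved in both directions. Of 22 genes of fatty acid synthesis, 4 rose (18.2%, beside 4.02% of all genes) and none fell: Srebf1, encoding SREBP1 (0.45 ± 0.06), Dgat2, which completes triglyceride synthesis (0.50 ± 0.08), the acetyl-CoA carboxylase regulator Mid1ip1 (0.85 ± 0.16) and the citrate carrier Slc25a1 (0.29 ± 0.06). Under median-ratio scaling 1 was called higher. Fatty acid synthase (Fasn) had a difference of 0.70 ± 0.21 (adjusted p = 0.0885, limma). Of 27 genes of cholesterol synthesis and SREBP2, 2 fell (7.41%, beside 1.5% of all genes) and none rose. They were Insig1 (-0.44 ± 0.07) and Insig2 (-0.64 ± 0.13), which retain SREBP proteins in the ER. The median of this list was -0.08, and 0.22 against control replicate 2 alone. In fatty acid oxidation and ketogenesis 4 of 33 rose (12.1%) and none fell, while median-ratio scaling gave 3 higher and 2 lower. Cyp4a14, a fatty acid omega-hydroxylase and target of PPARA, was at 168, 116 and 35.1 FPKM in IH and at 10.1, 8.82 and 10.1 FPKM in controls. The IH livers spread widely but all lay above the controls (3.07 ± 0.52, adjusted p = 0.0315, limma). Acadl and Angptl4 rose by 0.35 ± 0.05 and 0.75 ± 0.12.

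Of 29 HIF targets tested, 2 rose (6.9%) and 1 fell (3.45%), beside 4.02% and 1.5% of all genes, the median was 0.06, and that of all genes was 0.07. Bnip3, a mitophagy receptor, was at 101, 110 and 122 FPKM in IH and at 60, 66.8 and 60.5 FPKM in controls. Pdk1, which inhibits pyruvate dehydrogenase, was at 18.2, 16.3 and 14.6 FPKM in IH and at 9.45, 9.12 and 9.3 FPKM in controls. Both were higher in every IH liver, with differences of 0.82 ± 0.08 and 0.75 ± 0.08. Pdk2 (0.58 ± 0.08) and the dehydrogenase subunit Pdhb (0.41 ± 0.06) also rose. The transferrin receptor Tfrc was the HIF target that fell (-0.51 ± 0.10). The glucose transporter Slc2a1 and lactate dehydrogenase Ldha, both HIF targets, had differences of -0.58 ± 0.13 and -0.43 ± 0.11 (adjusted p = 0.0514 and 0.0642, limma). None of the 8 genes for HIF subunits and oxygen sensors was called. Among 20 iron genes, 2 rose and 2 fell (10% each, beside 4.02% and 1.5% of all genes). The iron exporter ferroportin (Slc40a1) was at 37.3, 44.1 and 37.4 FPKM in IH and at 10.9, 19 and 13.5 FPKM in controls. Its 2.74-fold higher mean gave a difference of 1.42 ± 0.18 (adjusted p = 0.0242, limma). Bmp6 rose by 0.47 ± 0.09 and the importer Slc11a2 fell by 0.56 ± 0.08. Hepcidin (Hamp), which triggers the degradation of ferroportin, had a difference of 0.38 ± 0.11 (adjusted p = 0.0783, limma).

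**Figure D3:**
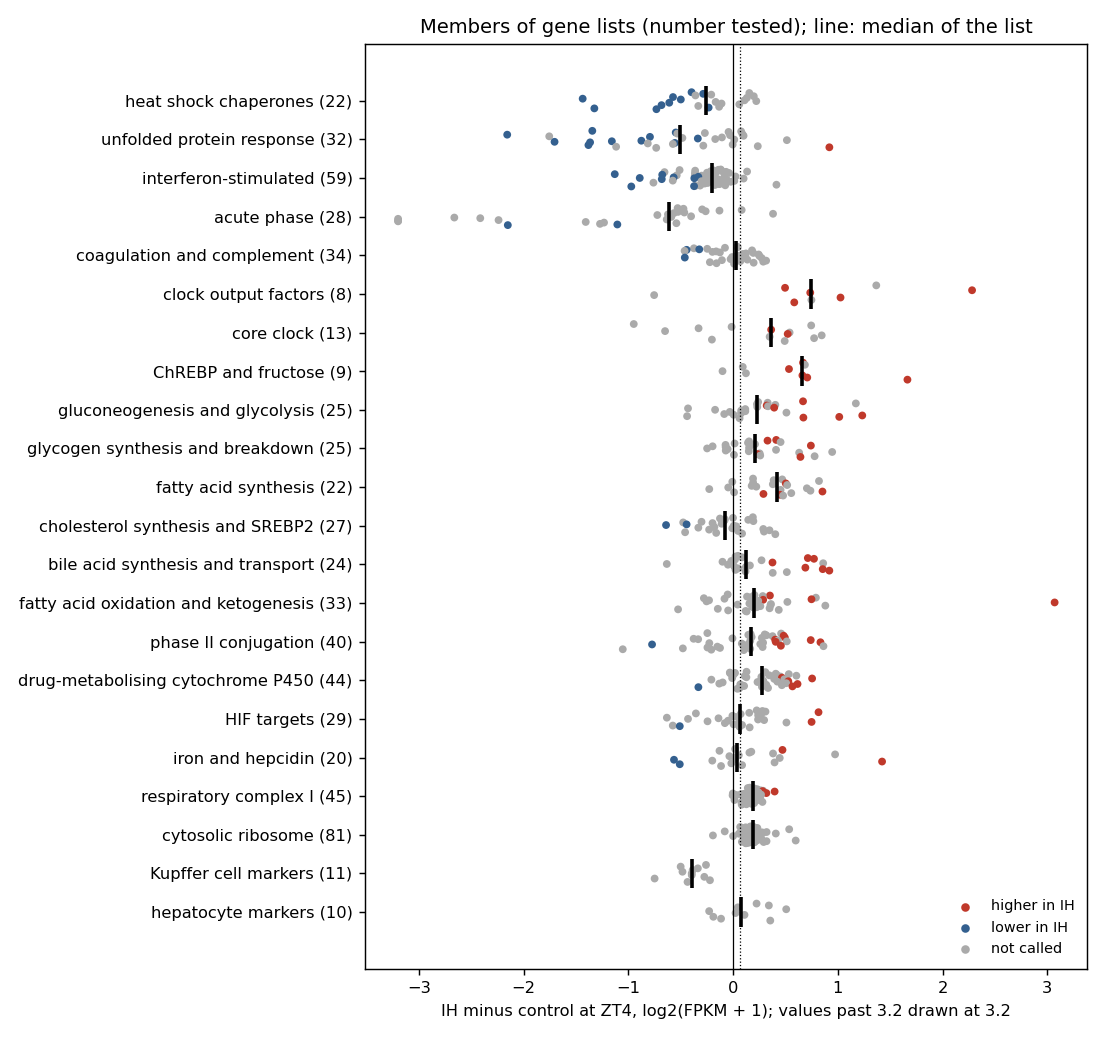
IH minus control at ZT4 in log2(FPKM + 1) for each tested member of 22 gene lists (number tested in parentheses), with a bar at the list's median and a dotted line at the median of all genes (0.07). Heat shock, unfolded protein response and interferon genes lie to the left, with medians of -0.26, -0.51 and -0.20, and clock output and ChREBP genes to the right, with 0.74 and 0.66; 3 values beyond the axis are drawn at its end.

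Among acute phase genes, 2 of 28 fell (7.14%, beside 1.5% of all genes) and none rose, with a median of -0.61. Their summed level was 15837 to 17287 FPKM in IH, 16489 FPKM in control replicate 2, and 29050 and 30618 FPKM in control replicates 1 and 3. The median against control replicate 2 alone was -0.09. Stat3, the transcription factor of IL-6 signalling, was at 18.9, 18.8 and 17.7 FPKM in IH and at 46.3, 36 and 40.8 FPKM in controls, with control replicate 2 also above the IH livers (-1.11 ± 0.09, adjusted p = 0.0116, limma). The metalloreductase Steap4 was at 18.6 to 19.4 FPKM in IH, at 37.8 FPKM in control replicate 2, and at 128 and 138 FPKM in control replicates 1 and 3. Of 34 genes of coagulation and complement, 3 fell (8.82%, beside 1.5% of all genes). They were C8b, C8a and Hc of the terminal complement pathway (-0.44 ± 0.07, -0.32 ± 0.06 and -0.46 ± 0.08). Among 4 further marker lists no gene was called, and their medians were 0.05 for stellate cells, 0.26 for sinusoidal endothelium, 0.17 for cholangiocytes and -0.26 for erythroid cells, beside 0.08 for hepatocytes. The NF-kappaB inhibitor Nfkbia rose by 0.73 ± 0.10, the only 1 of 23 genes of that pathway called (4.35%, beside 4.02% of all genes higher).

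Of the genes that fell most, Moxd1, a monooxygenase-like protein, was at 0.0213, 0.0135 and 0.209 FPKM in IH and at 15.4, 2.39 and 10 FPKM in controls (-2.98 ± 0.53, adjusted p = 0.0345, limma). Scara5, a ferritin receptor, and Slc41a2, a magnesium transporter, fell by 1.75 ± 0.16 and 1.94 ± 0.18. The major urinary proteins Mup7 and Mup12, among the most abundant liver transcripts, fell by 1.41 ± 0.21 and 1.37 ± 0.19, although the near-identical members of this family share reads and their separate values are uncertain. The nuclear noncoding RNA Neat1 (-1.48 ± 0.29) and the antiproliferative Btg2 (-1.82 ± 0.39) also fell. Of the genes that rose most, the androgen-metabolising Hsd17b6 (1.54 ± 0.20), the organic anion carrier Slco1a4 (1.43 ± 0.18) and the channel Hcn3 (1.86 ± 0.38) were called. Among detoxification genes, 7 of 40 in phase II conjugation rose (17.5%) and 1 fell (2.5%), beside 4.02% and 1.5% of all genes. Of 44 cytochrome P450 genes, 5 rose (11.4%) and 1 fell (2.27%). Similar members of these families can share reads. Gstt2, a glutathione transferase, rose by 0.74 ± 0.06, the receptor CAR (Nr1i3) by 0.77 ± 0.13 and the antioxidant factor NRF2 (Nfe2l2) by 0.73 ± 0.12. Igfbp2, an IGF-binding protein, rose by 0.66 ± 0.08. None of 81 cytosolic and 74 mitochondrial ribosomal protein genes was called, and 3 of 45 complex I genes rose (6.67%, beside 4.02% of all genes), with 0 called under median-ratio scaling. The genes named by the study numbered 25 among those tested. Of these, 3 rose (Gys2, Nr1d2 and Cry2, 12%) and none fell, beside 4.02% and 1.5% of all genes. The list was chosen on these same samples and so is no independent evidence. Under median-ratio scaling none of its genes was higher and 1 was lower.

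The effects at ZT4 were then compared with those at the other time points, which come from other mice. None of the 729 called genes was called at another time, where the same test called 0 or 1 genes in all. At ZT8, the end of the hypoxic period, 84.7% of the genes higher at ZT4 and 75.3% of those lower had the same sign, and over all genes tested 55.4% were above 0 and 44.4% below. At ZT16 the shares were 84.6% and 77.3%, beside 59.4% and 40.5% of all genes. At ZT0 they were 38.6% and 36.9%, beside 44.4% and 55.4%, and at ZT12 45.6% and 21.7%, beside 57.7% and 42.1%. At ZT20 they were 72.1% and 42.9%, beside 63.1% and 36.7%. The sizes of the differences were smaller than at ZT4, with a median of 0.15 for the higher and -0.11 for the lower genes at ZT8. Saa1 was highest in a control liver at ZT8, ZT12, ZT16 and ZT20 (828, 20546, 12912 and 2242 FPKM). The highest IH levels at these times were 53.1, 2470, 88.1 and 320 FPKM. At ZT0 the order was reversed, with up to 22865 FPKM in IH and 1235 FPKM in controls. The part of this imbalance in the shares was not tested.

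**Figure D4:**
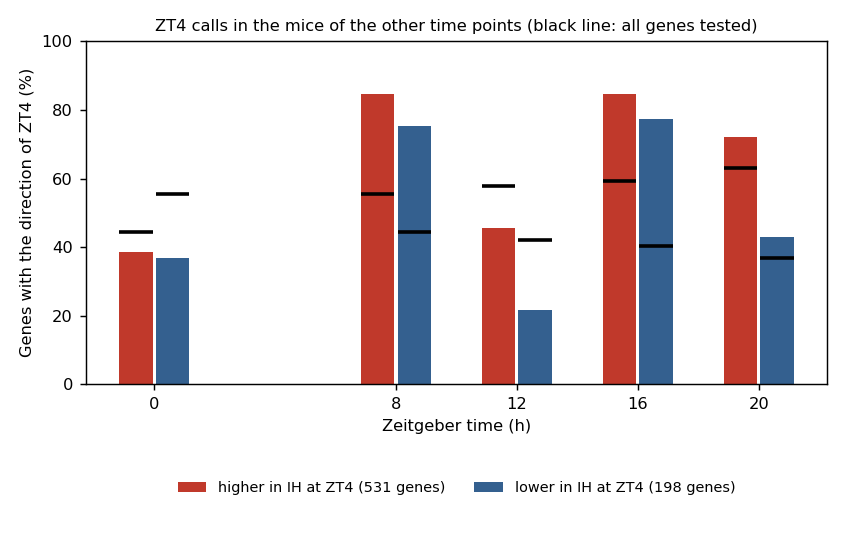
Percentage of the 531 genes higher (red) and 198 genes lower (blue) at ZT4 that had the same sign of difference in the mice of each other time point, with black lines at the percentage over all genes tested. At ZT8 and ZT16 both bars stand above their lines (84.7% and 75.3%, 84.6% and 77.3%), and at ZT0 and ZT12 both stand below.

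The difference between the effects was tested as an interaction in separate limma fits, of the 12 libraries of both times for ZT8 and for ZT0, and of all 36 libraries for the mean of the other 5 time points. Against ZT8, the effect differed in 1 gene (0.00757% of those tested), Rgs16. Against ZT0 it differed in none (0%), with 2428 genes at an unadjusted P under 0.05. Against the mean effect of the other 5 time points it differed in 63 genes (0.477%), 25 above and 38 below, of which 52 were also called at ZT4. Both counts rested on single libraries, since without control ZT12 replicate 2, the liver with 20546 FPKM of Saa1, they were 325 above and 152 below, and without IH ZT4 replicate 2 they were 1 and 1. With the libraries left out in turn they were 11 and 20 without IH replicate 1, 3 and 1 without IH replicate 3, 6 and 9 without control replicate 1, 16 and 9 without control replicate 2, and 8 and 12 without control replicate 3. Among the smallest P above 0 were those of Rgs16 and Osbp2, an oxysterol-binding protein. Below 0 they were those of the lipid kinase Pi4k2a, the tubulin Tubb2b and the cell adhesion receptor Cxadr.

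The daily courses of these genes show where ZT4 stood. Rgs16 in controls had a mean of 2.01 FPKM at ZT4 and 72.1 FPKM at ZT8, and in IH 80.7 FPKM at ZT4 and 122 FPKM at ZT8. The IH livers at ZT4 thus held a level near that of controls 4 h later. Dbp was at 3.73 FPKM in controls at ZT4 and at 70.8 FPKM at ZT8, and in IH at 25.5 and 92.8 FPKM. Hsp90aa1 ran the other way, at 79.1 FPKM in controls at ZT4 and 28.2 FPKM at ZT8, beside 28.6 FPKM in IH at ZT4 and 23.9 FPKM at ZT8. Nr1h4 dipped in controls at ZT4 to 37 FPKM from 52.5 FPKM at ZT0, with 73.7 FPKM at ZT8, and was at 67.8 FPKM in IH at ZT4. Txnip was at 16.2 and 71.7 FPKM in controls at ZT4 and ZT8 and at 52.3 FPKM in IH at ZT4. Hspa5 in controls had 303 FPKM at ZT4 and 156 FPKM at ZT8, and IH had 130 FPKM at ZT4. In each of these genes the IH mean at ZT4 lay on the side of the control mean at ZT8. Since the gene values were chosen for their difference at ZT4, this is a description and was not tested.

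**Figure D5:**
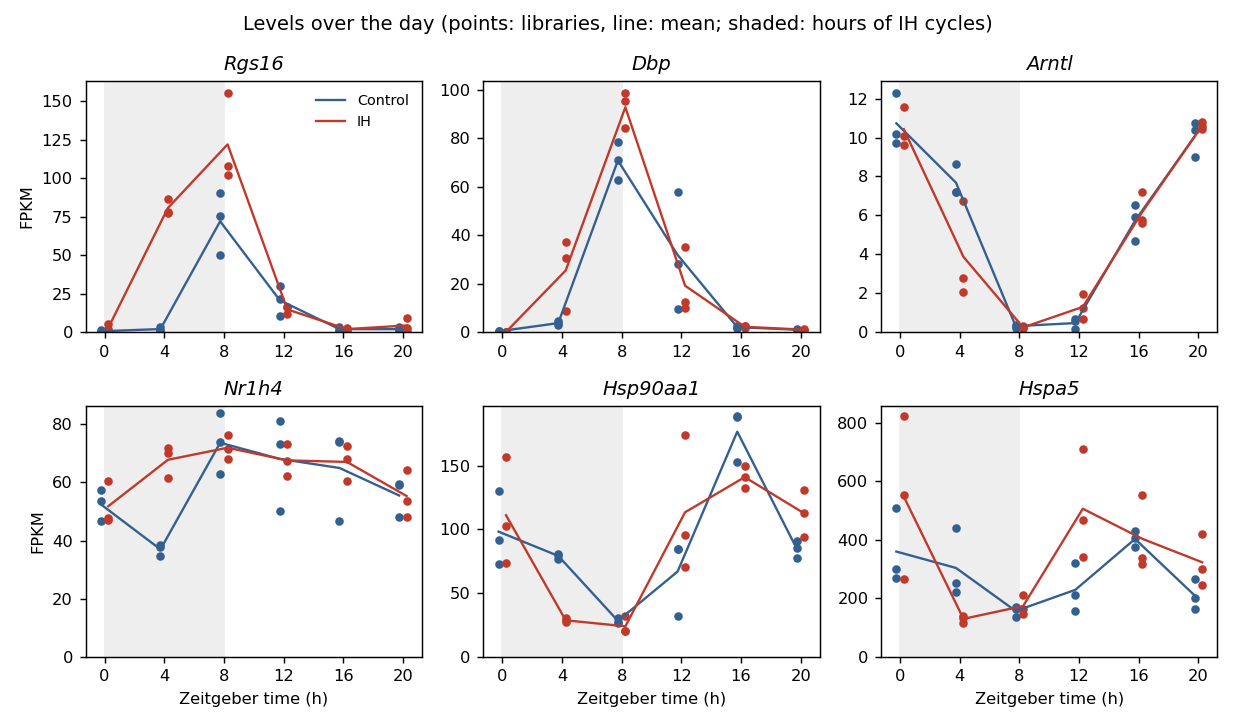
FPKM of 6 genes over the day in control (blue) and IH (red) livers, with points for the 3 libraries per group and lines through the means; the shaded hours are those of the IH cycles. At ZT4 the IH means of Rgs16 (80.7 FPKM), Nr1h4 (67.8 FPKM), Hsp90aa1 (28.6 FPKM) and Hspa5 (130 FPKM) are far from the control means of ZT4 and near those of ZT8. The IH means of Dbp (25.5 FPKM) and Arntl (3.87 FPKM) lie between the control means of ZT4 and ZT8. These are 3.73 and 70.8 FPKM for Dbp and 7.68 and 0.306 FPKM for Arntl.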

How the data were processed

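Livers of male mice were sequenced as stranded poly-A RNA libraries. Per the labels and the submitters' processing notes, the authors aligned reads with TopHat2 2.1.1 to mm10 and estimated FPKM with Cufflinks 2.2.1, and the deposited tables hold those FPKM values in 18 columns per condition. Of 24346 symbols, the 280 on several lines were left out. Genes averaging 0.1 FPKM or more across the 36 libraries were tested as log2(FPKM + 1) with limma 3.58.1 in R 4.3.3 (trend, Benjamini-Hochberg adjustment, 0.05), from the 6 libraries at ZT4. The contrasts with ZT8 and with ZT0 used the 12 libraries of both time points, and that with the mean of the other 5 time points used all 36. FPKM carries no read number, so depth was judged only relatively. The code was tested on simulated data. Gene positions come from GENCODE on GRCm38 and promoters from RefSeq.

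The comparison and the gene lists were chosen with earlier results of these data known. Named are the 12 called genes per direction with the smallest P and with the largest difference among those with a mean of at least 1 FPKM, up to 6 genes per list by P, genes the study names, and 3 genes per direction for each contrast between time points, with unannotated loci and some genes of these sets counted only. Some genes that the rule names are not reported here. Osbp2 and the values of Arntl, Per1, Per3, Cyp7a1, Slc2a1, Ldha, Hamp, Fasn, G6pc and Pck1 are given although they were not called. The alternatives tried were another pseudocount, filters, scalings, a common spread, a replicate block and leaving out each library, with 2 fits added after the data were seen.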

Additional observations from a re-analysis of the deposited data

Results flagged for a closer look

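The IH effect at ZT4 differed from the mean effect at the other 5 time points in 63 genes by a test of the difference itself (limma, all 36 libraries), and the following differences, in log2(FPKM + 1), are those of genes named above and of Morf4l2, a chromatin-associated protein gene. For Rgs16 the difference was 4.38, and it was 4.07 against ZT8 alone. Above 0 stood also the clock output factor Dbp (2.36), the arrestin Txnip (1.65), the bile acid receptor Nr1h4 (0.85), the fructose transporter Slc2a5 (0.69) and Osbp2 (0.46).

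Below 0 stood the ER genes Creld2 (-2.70), Hyou1 (-2.25), Manf (-1.83), Hspa5 (-1.63), Hsp90b1 (-1.19), Sec23b (-1.12), Lrrc59 (-1.12) and Dnajb11 (-1.11). The cytosolic chaperones Hsp90aa1 (-1.59), Hsph1 (-1.46) and Stip1 (-0.86) stood there too, as did Tubb2b (-1.47), Arntl (-1.09), Morf4l2 (-0.93), Cxadr (-0.77) and Pi4k2a (-0.58). These contrasts also hold the effects at the other times. The unfolded protein response list had a median difference of 0.29 at ZT0, 0.03 at ZT8, 0.50 at ZT12, -0.03 at ZT16 and 0.12 at ZT20. Creld2, Hyou1 and Hspa5 had differences of 1.62, 1.38 and 1.14 at ZT12, where none of them was called. Groups of 3 libraries were not tested for single outlying values.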

How the results depend on the processing

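FPKM gives no read number, so the precision of low genes is not known, and 3 livers a group made the adjusted calls depend on each library. The 729 called genes, whose groups do not overlap, had the same direction under every other filter, scaling, spread, block and left-out library that gave them a value (659 of them under the stricter filter of 1 FPKM, 711 with the length trend removed). With Saa1 as a covariate 727 had it and 2 did not. The filters, the spread and the block leave each difference as it is, and leaving out a library cannot turn it where groups do not overlap. The same direction in these fits is thus no sign of stability. The causes of the changes below were not tested.

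The calls at ZT4, 531 higher and 198 lower, became 71 and 33 without a filter on low values. They were 224 and 331 under median-ratio scaling, 264 and 293 under quantile normalization, and 117 and 36 with the spread of all 36 libraries. At an unadjusted P of 0.01 or less they were 1200 and 387. With Saa1 as a covariate they were 44 and 16. That fit also took its spread from all 36 libraries, so its like counts are 117 and 36. It was chosen after seeing the data. Leaving out 1 library gave 9 to 990 higher and 7 to 416 lower genes. Replicate numbers did not pair the libraries, since the correlations of same-numbered deviations were -0.02, 0.10 and 0.10, and the fit with the replicate number as a block gave 32 and 34.

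The number of lower heat shock chaperones (10) was 4 with the block and 3 with the spread of all libraries. It was 1 with Saa1 as a covariate over all libraries, and 1 to 9 with a library left out. In the same order, the unfolded protein response (11) had 1, 1, 1 and 1 to 15. Interferon-stimulated genes (9) had 0, 0, 0 and 0 to 13, with 14 under median-ratio scaling. Among higher genes, still in that order, clock output factors (5) had 0, 3, 2 and 0 to 3. They had 3 under median-ratio and 2 under quantile scaling. Glycogen genes (5) had 0, 0, 0 and 0 to 8, with 2 under either scaling. Bile acid genes (6) had 3, 2, 2 and 1 to 8. ChREBP and fructose genes (5) had 0, 4, 3 and 0 to 5, and gluconeogenesis and glycolysis (6) had 1, 5, 3 and 0 to 7.

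Against ZT8, 1 gene was below under a mean of at least 1 FPKM, median-ratio and quantile scaling, 2 were above with the block, 285 above and 164 below at an unadjusted P of 0.01 or less, and 1 to 12 above and 0 to 26 below with a library left out. Against ZT0 the counts were 629 and 192 at that P, and 0 to 4 and 0 to 6 with a library left out. Against the other 5 time points, 101 were below under median-ratio scaling, 42 above and 104 below under quantile normalization, 374 and 248 at that P, and 1 to 325 above and 1 to 152 below with a library left out, the highest without control ZT12 replicate 2. Of 95 named genes that were called, 95 held with a pseudocount of 0.1, 77 under median-ratio scaling, 30 without a filter and 28 with the block. With the spread of all 36 libraries 35 held, and 18 with Saa1 as a covariate as well. Without IH replicate 2 it was 8, and without control replicate 1 it was 14. Pck1, which was not called, turned from -0.17 to 0.10 without IH replicate 2 and ranged down to -0.43 with the other libraries left out.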
